A study of Mus musculus with 22 samples.

Results

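The 10 genes described here mark the last stretch of an enterocyte's life on the villus and the microvilli of its surface: Ada, Nt5e, Krt20, Clca4a, Enpp3, Alpi, Cdhr5, Cdhr2, Vil1 and Myo1a. They were chosen by symbol. Each gene is represented by its brightest probe set on average, so 10 of 18193 measured genes are described. All 10 were measured, and no filter on low values was applied. Total RNA of the terminal ileum was hybridised to 22 Affymetrix arrays of 1 colour. The mice were of the diabetes-prone NOD strain and were labelled as controls, as treated with pulses of antibiotics at therapeutic dose (PAT) or as treated with antibiotics below the therapeutic dose (STAT). There were 3 control, 3 PAT and 3 STAT females, and 5 control, 5 PAT and 3 STAT males. All 6 groups share the NOD background. The labels name no drug, dose, allele or age. Nothing in the labels says that the arrays of a group came from separate animals, so p-values measure the spread between these arrays, which may in part be technical.

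Enterocytes are born in the crypt, move up the villus in a few days and are shed at its tip. On the way they change their programme in zones: antimicrobial genes at the villus bottom, nutrient transporters in the middle, and at the tip genes for lipoproteins, stress-related transcription factors and the breakdown of purines. Their free surface is the brush border, a dense field of microvilli that are held up by bundles of actin and tied together at their ends by cadherins. In RNA of a whole tissue piece, fewer cells of a type and less RNA per cell cannot be told apart.

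Values are log2 expression levels, on which a difference of 1 is a 2-fold change. Column medians ran from 5.68 to 5.79. The tissue label was checked with 7 ileal enterocyte markers, whose mean level lay between 12.58 and 13.47 in all 22 arrays. A pair of arrays, STAT males 2 and 3 (titles BS145 and BS146), is shown apart throughout. Their beta-actin control probe sets differed between the 3-prime and 5-prime ends by 0.59 and 0.60, against 0.28 to 0.42 in the other 20 arrays. For Gapdh the same difference was -0.04 and -0.08 in them, -0.03 in PAT female 1, -0.08 in PAT male 5, between -0.2 and -0.09 in the control females and between -0.26 and -0.2 in the control males. It ran from -0.11 to -0.03 in PAT females and from -0.23 to -0.08 in PAT males. The PAT mean was above the control mean in both sexes, so this covariate and PAT cannot be fully told apart. Calls are limma's, after Benjamini-Hochberg adjustment over all genes and at a threshold of 0.05. They took in 11.0% of genes in PAT against control with the sexes averaged, 9.02% in males and 3.35% in females, and 0% in STAT against control in either sex or in both. When quantile normalization was repeated, the split of these calls moved from 426 higher and 1215 lower to 593 and 791 in PAT males, and from 413 higher and 197 lower to 322 and 367 in PAT females. STAT and PAT were compared with the same control arrays.

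**Figure D1:**
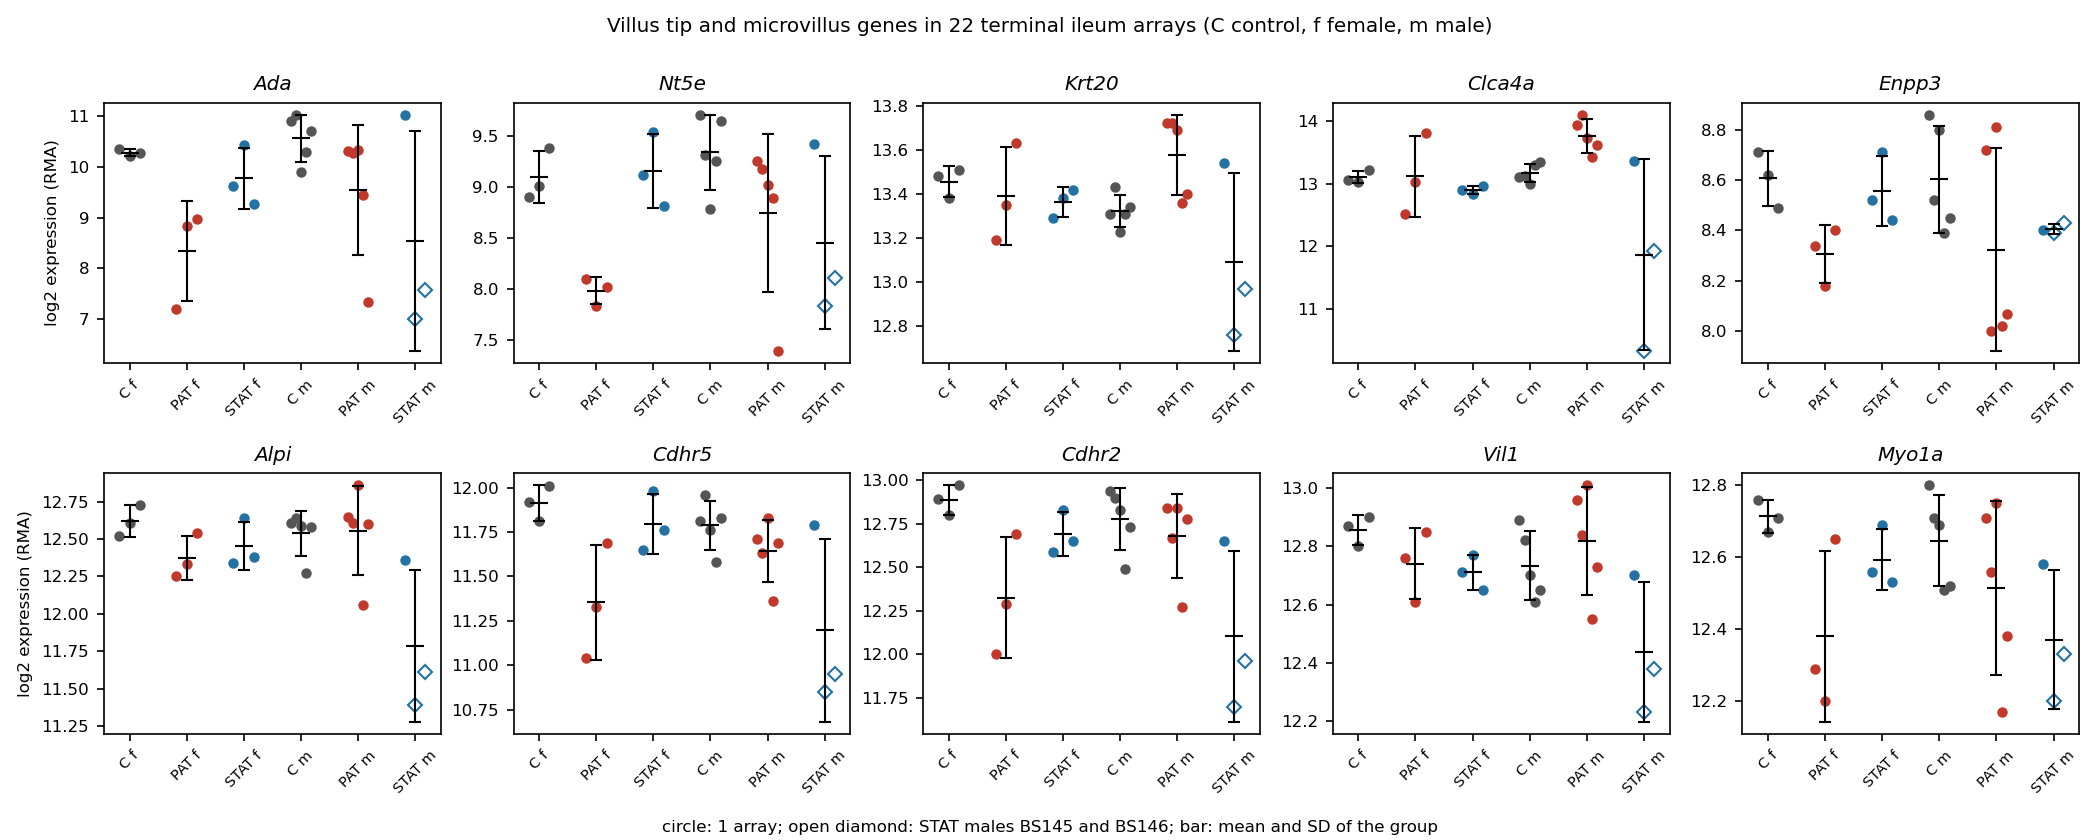
Log2 expression level of each of the 10 genes in each array, by group (C control, f female, m male), with the mean and SD of the group as bars. The open diamonds, STAT males 2 and 3, lie below every other array for Krt20, Clca4a, Alpi, Cdhr5, Cdhr2 and Vil1.

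Promoters of 9 of the 10 genes could be matched by symbol in RefSeq (GRCm38.p6), as windows of 300 bases from 250 before to 50 after the start. Those of 4 members are printed: Ada and Nt5e, which varied together and more than the other members outside STAT males 2 and 3, and Krt20 and Alpi, the members whose windows hold CDX2 letters. Capitals mark matches to 5 motifs searched on both strands: CAAAGTCCA (HNF4), TTTATNG (CDX2), CCACACCC (KLF4), TGANTCA (AP-1) and TATAAA (the TATA box).
Ada, chr2:163750190-163750489, minus strand: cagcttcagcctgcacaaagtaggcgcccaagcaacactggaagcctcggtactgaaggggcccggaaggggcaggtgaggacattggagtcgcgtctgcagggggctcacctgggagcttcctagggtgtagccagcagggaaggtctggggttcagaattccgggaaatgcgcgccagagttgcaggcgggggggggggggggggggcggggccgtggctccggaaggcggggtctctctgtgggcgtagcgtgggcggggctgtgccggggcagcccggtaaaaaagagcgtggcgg
Nt5e, chr9:88327359-88327658, plus strand: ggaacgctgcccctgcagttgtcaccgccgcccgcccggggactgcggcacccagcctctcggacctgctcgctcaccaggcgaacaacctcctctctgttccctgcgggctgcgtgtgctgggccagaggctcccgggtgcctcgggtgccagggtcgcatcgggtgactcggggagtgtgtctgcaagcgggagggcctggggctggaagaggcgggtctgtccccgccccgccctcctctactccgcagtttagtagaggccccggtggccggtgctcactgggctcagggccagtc
Krt20, chr11:99438104-99438403, minus strand: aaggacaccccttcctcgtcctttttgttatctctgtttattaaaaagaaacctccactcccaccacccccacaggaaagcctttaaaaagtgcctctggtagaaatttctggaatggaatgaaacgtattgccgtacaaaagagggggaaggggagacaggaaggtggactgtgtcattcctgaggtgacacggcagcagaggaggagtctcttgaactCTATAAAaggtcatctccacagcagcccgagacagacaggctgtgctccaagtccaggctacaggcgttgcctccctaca
Alpi, chr1:87101557-87101856, minus strand: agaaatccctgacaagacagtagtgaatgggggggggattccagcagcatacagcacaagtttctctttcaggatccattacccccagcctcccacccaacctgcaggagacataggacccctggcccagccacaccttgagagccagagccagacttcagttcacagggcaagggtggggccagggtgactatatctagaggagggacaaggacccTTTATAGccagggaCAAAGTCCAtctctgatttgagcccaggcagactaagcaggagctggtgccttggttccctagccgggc
The Ada and Nt5e windows are rich in G and C, at 68.0% and 71.0% against a median of 52.7% over all promoters, with 20 and 23 CG pairs against a median of 7. None of the 5 motifs was found in either. The Krt20 window holds CTATAAA at -30 from the start, where a CDX2 and a TATA box match overlap, and the Alpi window holds TTTATAG at -33, again with both. In each the CDX2 letters contain those of the TATA box, so the matches are not separate. Alpi alone among the 9 has the HNF4 letters, CAAAGTCCA at -19, which 0.475% of 32851 promoters hold. CDX2 letters were found in 2 of the 9 (10.9% of all promoters) and TATA box letters in 3 (13.6%). The other one was Enpp3, with its match at -209. KLF4 and AP-1 letters were found in 0 of the 9, and in 3.56% and 7.81% of all promoters. HNF4 and CDX2 are transcription factors of the enterocyte. A match describes these letters in this window and says nothing of binding.

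Ada and Nt5e, the purine enzymes of the villus tip, had the widest ranges of the members outside STAT males 2 and 3 and the most negative differences of PAT from control. Ada encodes adenosine deaminase, which turns adenosine into inosine, and Nt5e encodes CD73, the surface enzyme that makes adenosine from AMP. Nt5e fell by 0.85 ± 0.25 (SE) on the log2 scale with PAT when the sexes were averaged, a 1.8-fold decrease with a limma adjusted p of 0.032. It was the only member of the 10 called in that comparison, where 11.0% of all genes were called. Ada differed by -1.49 ± 0.50, a 2.8-fold lower mean, with an adjusted p of 0.062, and did not pass.

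Ada was at 10.36, 10.22 and 10.27 in control females, and at 7.2, 8.84 and 8.97 in PAT females. The 3 PAT females lay below all 3 controls and did not overlap with them. In males it was at 10.91, 11.02, 9.9, 10.3 and 10.71 in controls and at 10.31, 10.27, 10.34, 9.45 and 7.34 with PAT. Here 3 of the 5 PAT males lay within the control range, and PAT male 5 stood 3.23 below the control mean, a 9.37-fold difference. STAT females were at 9.63, 10.44 and 9.26, and STAT male 1 was at 11.02. STAT males 2 and 3 were at 7.01 and 7.57, so that 4 of the 22 arrays, 1 PAT female, 1 PAT male and these 2, lay under 8 and every other array lay at 8.84 or above. The whole range of 4.01 (16.1-fold) was wider than that of 99.71% of all genes. The Gapdh end difference in these 4 arrays was between -0.08 and -0.03. It was -0.08 in PAT female 2, with Ada at 8.84, -0.09 in control female 3, with Ada at 10.27, and -0.1 in STAT female 1, with Ada at 9.63.

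Nt5e was at 8.9, 9.01 and 9.38 in control females and at 8.1, 7.84 and 8.02 in PAT females, with no overlap and a difference of -1.11 ± 0.40 (adjusted p = 0.11). Control males were at 9.7, 9.31, 8.78, 9.25 and 9.65, and PAT males at 9.25, 9.18, 9.02, 8.89 and 7.39. The PAT males overlapped with their controls except for PAT male 5, and the difference in males was -0.59 ± 0.31 (adjusted p = 0.24). STAT females, at 9.12, 9.54 and 8.81, lay around their controls, as did STAT male 1 at 9.42, while STAT males 2 and 3 were at 7.84 and 8.11. The Nt5e call of PAT against control was lost, with adjusted p up to 0.087, without control female 2 or 3, PAT female 1, 2 or 3, or control male 1 or 5. With the Gapdh difference as a covariate, which itself was higher on average with PAT, Nt5e differed by -0.37 ± 0.24 (adjusted p = 0.49). With the beta-actin difference it differed by -0.70 ± 0.19 (adjusted p = 0.023). Of its other probe sets, one at a mean level of 7.25 gave -0.31 ± 0.13 and one at 5.5 gave -0.02 ± 0.06. Neither passed, and with the mean of the 3 probe sets in place of the brightest one Nt5e was at -0.39 (adjusted p = 0.052). With a trended robust prior the adjusted p was 0.055.

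**Figure D2:**
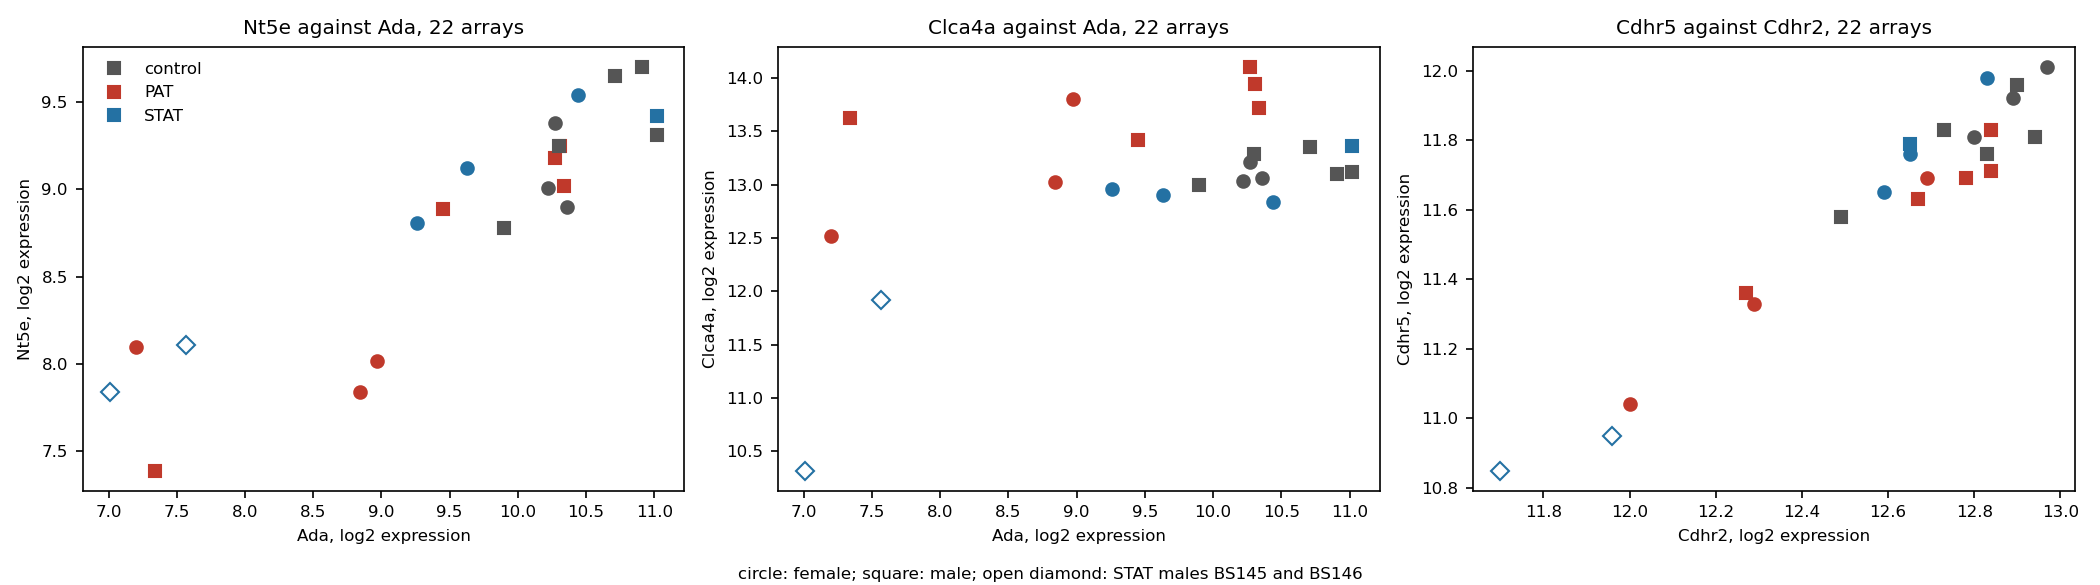
Log2 levels of 3 pairs of genes in the 22 arrays (circle female, square male, open diamond STAT males 2 and 3; grey control, red PAT, blue STAT). Nt5e followed Ada across the arrays (r = 0.89 without the diamonds), Clca4a did less (r = 0.16), and Cdhr5 followed Cdhr2 along a line.

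Enpp3, a surface enzyme that splits nucleotides outside the cell, was steadier. It was at 8.71, 8.62 and 8.49 in control females and at 8.34, 8.18 and 8.4 in PAT females, without overlap. In males 3 of the 5 PAT arrays (8.0, 8.02 and 8.07) lay below every control (8.39 to 8.86), and the other two, at 8.72 and 8.81, lay within. Enpp3 differed by -0.29 ± 0.11 over both sexes (adjusted p = 0.11). It was the member least lowered in STAT males 2 and 3, which were at 8.39 and 8.43, beside 8.4 in STAT male 1. Its 4 other probe sets did not pass either, and the brightest of them, at a mean level of 8.09, gave -0.26 ± 0.11.

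Of 17 other genes of purine breakdown and transport, not all of them acting outside the cell, 11 were measured. In PAT against control with the sexes averaged, where 11.0% of all genes were called, 0 were higher, 2 lower and 9 not called. Their median was -0.19. Pnp, the phosphorylase that acts on inosine after adenosine deaminase, fell by 0.32 ± 0.08 (adjusted p = 0.013). Xdh, which makes uric acid at the end of the path, fell by 0.64 ± 0.16 (adjusted p = 0.015). In males Slc29a3, a nucleoside transporter, fell by 0.29 ± 0.09 (adjusted p = 0.048). In females 0 of the 11 were called. In the averaged comparison the count of lower genes was 0 when the Gapdh difference entered as a covariate, and 4 (Entpd5, Entpd8, Pnp and Xdh) without STAT males 2 and 3. Lymphocytes carry Ada and Nt5e as well: a list of 9 T cell and intraepithelial lymphocyte markers, 4 of them at a mean level under 6, lay at 5.55 to 6.04 in PAT females and 5.95 to 6.2 in control females. In males the same list lay at 5.64 to 5.89 with PAT and at 5.96 to 6.23 in controls. With the sexes averaged 2 of the 9 were lower with PAT, 0 higher and 7 not called, at a median of -0.05. Those called were the granzymes Gzma (-1.58 ± 0.24) and Gzmb (-0.90 ± 0.18). The part of these cells in the Ada and Nt5e values was not tested.

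Krt20 and Clca4a, by contrast, were not lower with PAT in males, and Clca4a stood at its highest there. Krt20 is the keratin of the mature villus cell, and Clca4a belongs to the family of secreted calcium-activated chloride channel regulators. Clca4a was at 13.94, 14.1, 13.72, 13.42 and 13.62 in PAT males, above every control male (13.1, 13.12, 13.0, 13.29 and 13.35). The difference was 0.59 ± 0.34, 1.5-fold, with a limma adjusted p of 0.29. Clca4a was the 1 member of 10 whose PAT males lay wholly above the controls, and 1.75% of all genes did so. The number of all genes called also changed between the main fit and the alternatives in which Clca4a passed. With only the 10 arrays of these 2 groups in the fit it passed at 0.59 ± 0.12 (adjusted p = 0.018), and it passed at 0.59 ± 0.17 (adjusted p = 0.033) when STAT males 2 and 3 were left out.

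In PAT females Clca4a was spread widely, at 12.52, 13.02 and 13.8, around the controls at 13.06, 13.03 and 13.21. The 3 STAT females, at 12.9, 12.84 and 12.96, lay just below those controls. STAT male 1 was at 13.36, level with the highest control male, and STAT males 2 and 3 were at 10.32 and 11.92. The lower of them was 7.21-fold below the mean of the control males. The range of Clca4a was 3.78 (13.7-fold) over 22 arrays and 1.58 over the other 20. Clca4a has a close relative, Clca4b, and whether the probe sets tell both apart was not tested. Clca4b ran from 13.18 to 14.07 in the other 20 arrays and was at 12.29 and 12.88 in STAT males 2 and 3.

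Krt20 moved within narrow limits. Control females were at 13.48, 13.38 and 13.51, PAT females at 13.19, 13.35 and 13.63 and STAT females at 13.29, 13.38 and 13.42, which overlapped. In PAT males it was at 13.72, 13.72, 13.69, 13.36 and 13.4, with 3 of 5 above every control male (13.23 to 13.43). The difference of 0.25 ± 0.12 had an adjusted p of 0.18 and did not pass. With the Gapdh or the beta-actin difference as a covariate it was 0.46 ± 0.09 (adjusted p = 0.0041) and 0.30 ± 0.06 (adjusted p = 0.0036). The number of all genes called changed with these covariates as well. STAT male 1 was at 13.54, above all controls, and STAT males 2 and 3 were at 12.76 and 12.97, the lowest of all 22 arrays.

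Of 12 other genes known from the villus tip 11 were measured, and some of them rose with PAT. The list was chosen with earlier results of these data known, so its counts are a description and not an independent test. In males 7 of the 11 were higher, 0 lower and 4 not called, at a median of 0.77, against -0.011 over all genes. Of all genes 9.02% were called in males, 426 higher and 1215 lower. Cdkn1a, a brake on the cell cycle, rose by 0.81 ± 0.15 (adjusted p = 0.0028). Klf4, a transcription factor of differentiated epithelium, rose by 0.78 ± 0.17 (adjusted p = 0.0076). The interleukin 1 receptor antagonist Il1rn rose by 1.64 ± 0.43 and Apob, the structural protein of chylomicrons, by 0.51 ± 0.13. In females, where 3.35% of all genes were called, 1 of the 11 was called. This was Apoa4, an apolipoprotein of the tip, which rose by 2.03 ± 0.54, 4.07-fold (adjusted p = 0.045). Averaged over the sexes, where 11.0% of all genes were called, 5 of the 11 were higher. Among them were Apoa4 (1.73 ± 0.34), Klf4 (0.59 ± 0.14), Creb3l3 (0.82 ± 0.20) and Cdkn1a (0.50 ± 0.13). Without STAT males 2 and 3 the counts of higher genes were again 7 in males, 1 in females and 5 for both, where 1 gene, Gsdmd, was then lower. With the Gapdh difference as a covariate they were 9, 2 and 7. The number of all genes called changed between these fits as well. In the same PAT males the 8 stem cell markers had a mean level of 8.01 to 8.34, below the control males at 8.42 to 8.66, and 3 of the 8 fell: Ascl2 by 0.85 ± 0.16, Znrf3 by 0.46 ± 0.13 and Sox9 by 0.44 ± 0.12. Of 5 Paneth cell markers 2 fell, Pla2g2a by 0.82 ± 0.21 and Mmp7 by 0.54 ± 0.17, and the levels of that list overlapped (11.81 to 12.36 against 12.12 to 12.79). The part of these cells in the levels of the villus tip genes was not tested.

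**Figure D3:**
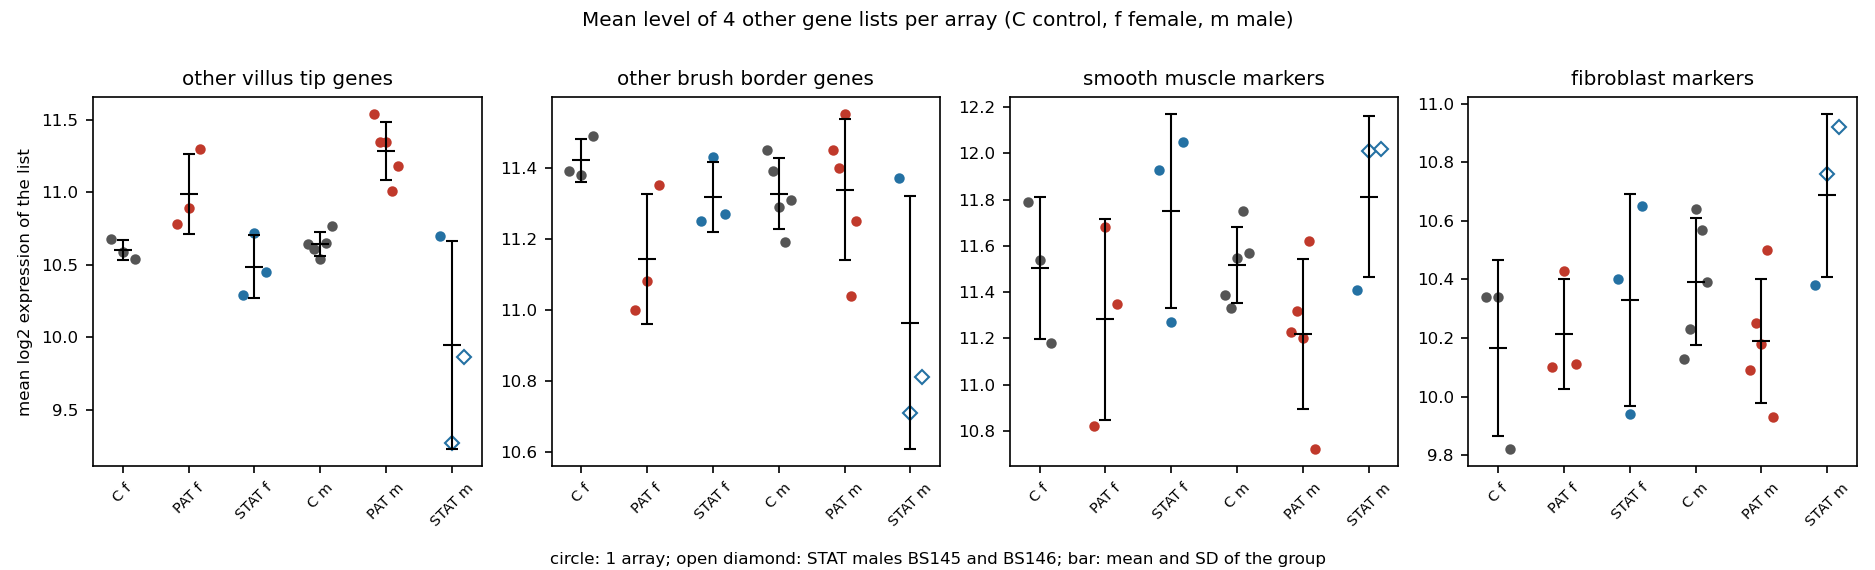
Mean log2 level of 4 gene lists in each array by group, with the mean and SD of the group as bars. The other villus tip genes lie higher in the PAT males (11.01 to 11.54) than in the control males (10.54 to 10.77), and in STAT males 2 and 3 both the tip and the brush border list lie below every other array while the fibroblast list lies above.

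Alpi, Cdhr5, Cdhr2, Vil1 and Myo1a make up the microvillus and its surface. Alpi is intestinal alkaline phosphatase, anchored on the microvillus membrane. Cdhr2 and Cdhr5 are the cadherins that bridge neighbouring microvilli, Vil1 (villin) bundles their actin, and Myo1a is the motor that ties the bundle to the membrane. None of the 5 was called with PAT against control in either sex or in both. The adjusted p-values for both sexes were 0.65 for Alpi, 0.064 for Cdhr5, 0.1 for Cdhr2, 0.92 for Vil1 and 0.1 for Myo1a.

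The pair of cadherins had lower means in PAT females, and neither passed. Cdhr5 was at 11.92, 11.81 and 12.01 in control females and at 11.04, 11.33 and 11.69 in PAT females. Its difference of -0.56 ± 0.19 (1.47-fold, adjusted p = 0.096) did not pass. Cdhr2 was at 12.89, 12.8 and 12.97 in control females and at 12.0, 12.29 and 12.69 in PAT females. The difference was again -0.56 (± 0.20, adjusted p = 0.11). In both genes PAT female 1 was lowest and PAT female 3 nearest to the controls, and without PAT female 3 Cdhr5 passed at -0.72 (adjusted p = 0.047) and Cdhr2 at -0.74 (adjusted p = 0.0495), in a fit that called 4.13% of all genes. In males the cadherins of PAT and control overlapped, with Cdhr5 at 11.36 to 11.83 against 11.58 to 11.96 and Cdhr2 at 12.27 to 12.84 against 12.49 to 12.94. PAT male 4 was the lowest of its group for both.

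Myo1a was at 12.76, 12.67 and 12.71 in control females and at 12.29, 12.2 and 12.65 in PAT females, without overlap, at -0.33 ± 0.14 (adjusted p = 0.18). Its males overlapped, from 12.17 to 12.75 with PAT and from 12.51 to 12.8 in controls. Alpi ranged from 12.25 to 12.54 in PAT females and from 12.52 to 12.73 in control females, and overlapped. In males Alpi differed by 0.02 ± 0.15, with PAT male 4 lowest at 12.06. Vil1, the most even of the members, stayed between 12.55 and 13.01 in the other 20 arrays, a range of 0.46 that 13.08% of genes undercut.

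Taking all 10 members in females, 6 lay in PAT wholly below control: Ada, Nt5e, Enpp3, Cdhr5, Cdhr2 and Myo1a. Of all genes 13.2% did so in that direction. Cell type lists that did not overlap between the same arrays were cell division, at 9.92 to 10.16 with PAT and 9.25 to 9.61 in controls, endothelium, at 6.79 to 7.3 and 6.4 to 6.68, plasma cell, at 9.93 to 10.28 and 9.51 to 9.9, and enteroendocrine cell, lower at 9.18 to 9.3 against 9.32 to 9.47. In females limma called 1 of 9 cell division genes (Mcm3, 0.91 ± 0.23), 1 of 7 endothelial genes (Kdr, 0.71 ± 0.17), 0 of 5 plasma cell genes and 0 of 8 enteroendocrine genes. The part of these cells in the members' levels was not tested. Limma called 0 of the 10 members in females, 5 at an unadjusted p under 0.05 (20.9% of all genes), and the median was -0.32 against -0.006 over all genes. In males it called 0, 1 at an unadjusted p under 0.05 (Krt20, against 25.0% of all genes), with a median of -0.11. With the sexes averaged 6 were at an unadjusted p under 0.05, as 24.1% of all genes were, and the median was -0.26. Without STAT males 2 and 3, 4 of the 10 were called lower in that comparison: Ada, Nt5e (-0.85 ± 0.22, adjusted p = 0.016), Cdhr5 and Cdhr2. That fit called 11.6% of all genes, with 6.87% lower. The difference between the female and the male effect of PAT, tested as an interaction, was called for 0 of the 10 (lowest adjusted p 0.32, 0 at an unadjusted p under 0.05) and for 0.00550% of genes.

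**Figure D4:**
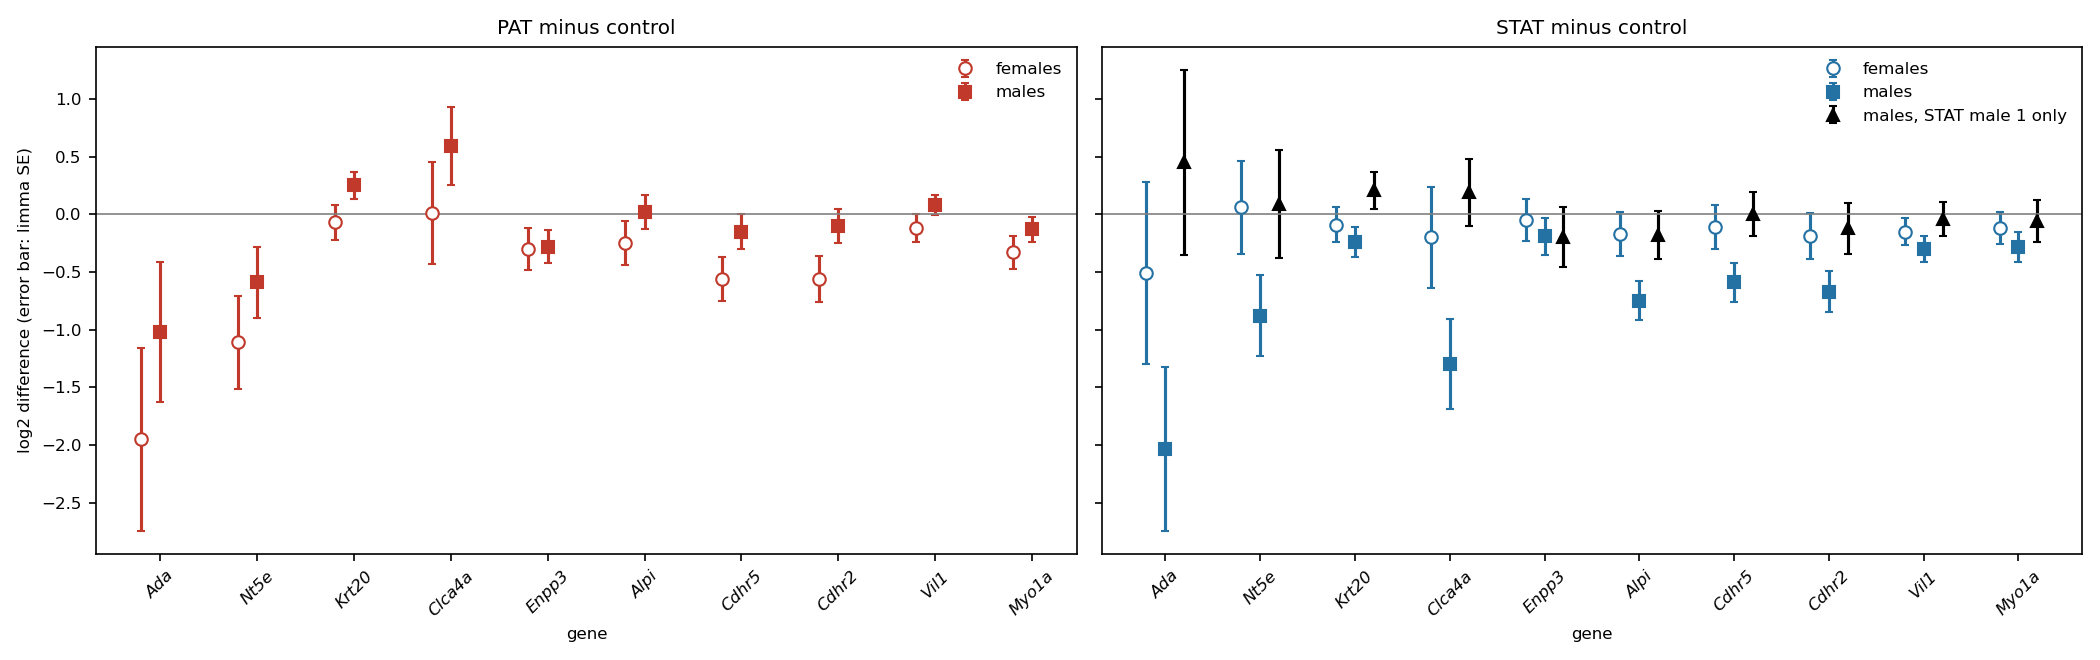
Log2 difference from control of each gene with its limma SE, for PAT (left) and STAT (right), in females (open circles) and males (squares). The black triangles give STAT males when STAT males 2 and 3 are left out, and sit between -0.2 and 0.45, while with all 3 arrays the values reach -2.03 for Ada and -1.3 for Clca4a.

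Among 19 measured genes of the brush border other than the members, 0 were higher and 2 lower with PAT when the sexes were averaged. Of all genes 11.0% were called in that comparison. Pls1 (plastin 1), another bundler of microvillus actin, fell by 0.41 ± 0.11 (adjusted p = 0.022). Pdzk1, a scaffold under the membrane, fell by 0.64 ± 0.20 (adjusted p = 0.046). Their median was -0.24 in females and 0.04 in males, with 0 of 19 called in either. When the Gapdh difference entered as a covariate 0 were called lower, and 4 of 19 were called higher in males. Lower on the villus, 4 of 7 genes of the villus bottom were lower with PAT and 0 higher: Reg3g fell by 0.66 ± 0.11, Lypd8 by 0.41 ± 0.08, Cyp3a11 by 2.10 ± 0.51 and Reg3b by 0.25 ± 0.07. Of 9 genes of the villus middle 2 were lower, the amino acid transporters Slc7a9 (-0.60 ± 0.12) and Slc6a19 (-0.60 ± 0.16).

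Of 14 enterocyte transcription factors 2 were lower with PAT over both sexes, where 11.0% of all genes were called. Elf3 fell by 0.54 ± 0.11 and Isx by 0.37 ± 0.08. Of 30 relatives of the members 2 were higher and 1 lower in the same comparison, a share near that of all genes. Nt5c3, a nucleotidase inside the cell, rose by 0.34 ± 0.08 and the keratin Krt18 by 0.19 ± 0.05. Clca3a2, of the family of Clca4a, fell by 0.57 ± 0.14. In males Clca3a2 fell by 0.99 ± 0.17 (5.77 against 6.76 in controls). Its level with PAT lay within the range of the column medians, 5.68 to 5.79. Clca4a had a higher mean in PAT males and was not called.

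With STAT limma called 0 of the 10 members in females, in males or in both, and 0% of all genes. With the sexes averaged 7 of 10 members and 13.1% of all genes were at an unadjusted p under 0.05. In females every adjusted p was 1, 0 of the 10 were at an unadjusted p under 0.05, and the median was -0.13. Clca4a and Vil1 lay in all 3 STAT females below all 3 controls, as 5.10% of genes did. Vil1 was at 12.71, 12.77 and 12.65 there and at 12.87, 12.8 and 12.9 in control females, a difference of -0.15 ± 0.12. In males the median was -0.63, and 8 of the 10 were at an unadjusted p under 0.05, as 15.7% of all genes were. The lowest adjusted p was 0.11, for Alpi at -0.75 ± 0.17. All 10 members had a lower mean in STAT males than in control males.

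STAT males were not alike. STAT male 1 lay close to the control males in every member: its deviations ran from -0.2 for Enpp3 to 0.45 for Ada, with a median of -0.02. STAT males 2 and 3 lay below the control mean in all 10, with medians of -1.01 and -0.83. Alpi was at 11.39 and 11.61 in them and at 12.36 in STAT male 1, against 12.61, 12.64, 12.59, 12.27 and 12.58 in control males. Cdhr5 was at 10.85 and 10.95 and Cdhr2 at 11.7 and 11.96, against 11.79 and 12.65 in STAT male 1. Vil1 was at 12.23 and 12.38, under a lowest value of 12.55 elsewhere. Krt20, Clca4a, Alpi, Cdhr5, Cdhr2 and Vil1, 6 of 10, were lower in both arrays than in any of the other 20, as 5.82% of all genes were.

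For the others some array was as low. Ada in PAT female 1 (7.2) and PAT male 5 (7.34) lay between STAT males 2 and 3, and Nt5e was lowest of all in PAT male 5 (7.39). Myo1a in PAT male 4 (12.17) and PAT female 2 (12.2) was as low as their 12.2 and 12.33. Without STAT male 1, 8 of the 10 members were called in STAT against control males, all but Enpp3 and Myo1a, with Ada at -3.28 and Clca4a at -2.05. That fit called 10.8% of all genes, with 7.26% lower. Without STAT males 2 and 3 the median of the members was -0.02. That fit has 1 STAT male, which is assumed to vary like the other groups.

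Other measures moved with these 2 arrays (the genes named in this respect were picked after their values were seen). The smooth muscle list of 8 genes was at 12.01 and 12.02 in them, high in the range of the other 20 (10.72 to 12.05) but not outside it. Of its 8 genes 3 lay above all 20. So did 3 genes of the fibroblast list of 7 (Col1a2, Col3a1 and Lum). Of all genes 5.5% lay in both arrays above all 20. Fibroblast markers as a list were at 10.76 and 10.92, against 9.82 to 10.65. Stem cell markers as a list of 8 were at 8.84 and 8.85, just above the others at 8.01 to 8.83. Of the 8 genes 2 (Olfm4 and Smoc2) lay above all 20. The rest did not, among them Sox9 at 7.52 and 7.45, against a median of 7.53 in the other 20. Ileal enterocyte markers were lower as a list, at 12.58 and 12.75 against 12.87 to 13.47, with 4 of the 7 (Fabp2, Apoa1, Anpep and Cdh17) below all 20. Fabp6, at 14.26 and 14.41, was not lowered (median of the other 20 at 14.29). Goblet cell markers, at 13.08 and 13.11, lay just above the highest of the others (13.07). Of the other villus tip genes 8 of 11 and of the other brush border genes 11 of 19 lay below all 20, as 5.82% of all genes did. Among them were Eps8 (10.76 and 11.05 against 11.22 or more) and Ezr (12.06 and 12.24 against 12.56 or more). The part of the other cell types in the members' levels was not tested. With the beta-actin end difference as a covariate the members' median in STAT males was -0.05, and with that of Gapdh -0.21. The beta-actin difference was 0.59 and 0.60 in STAT males 2 and 3 and 0.28 to 0.42 in the other 20 arrays. That fit therefore comes close to leaving both out, and it cannot tell RNA ends from other traits of these arrays.

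**Figure D5:**
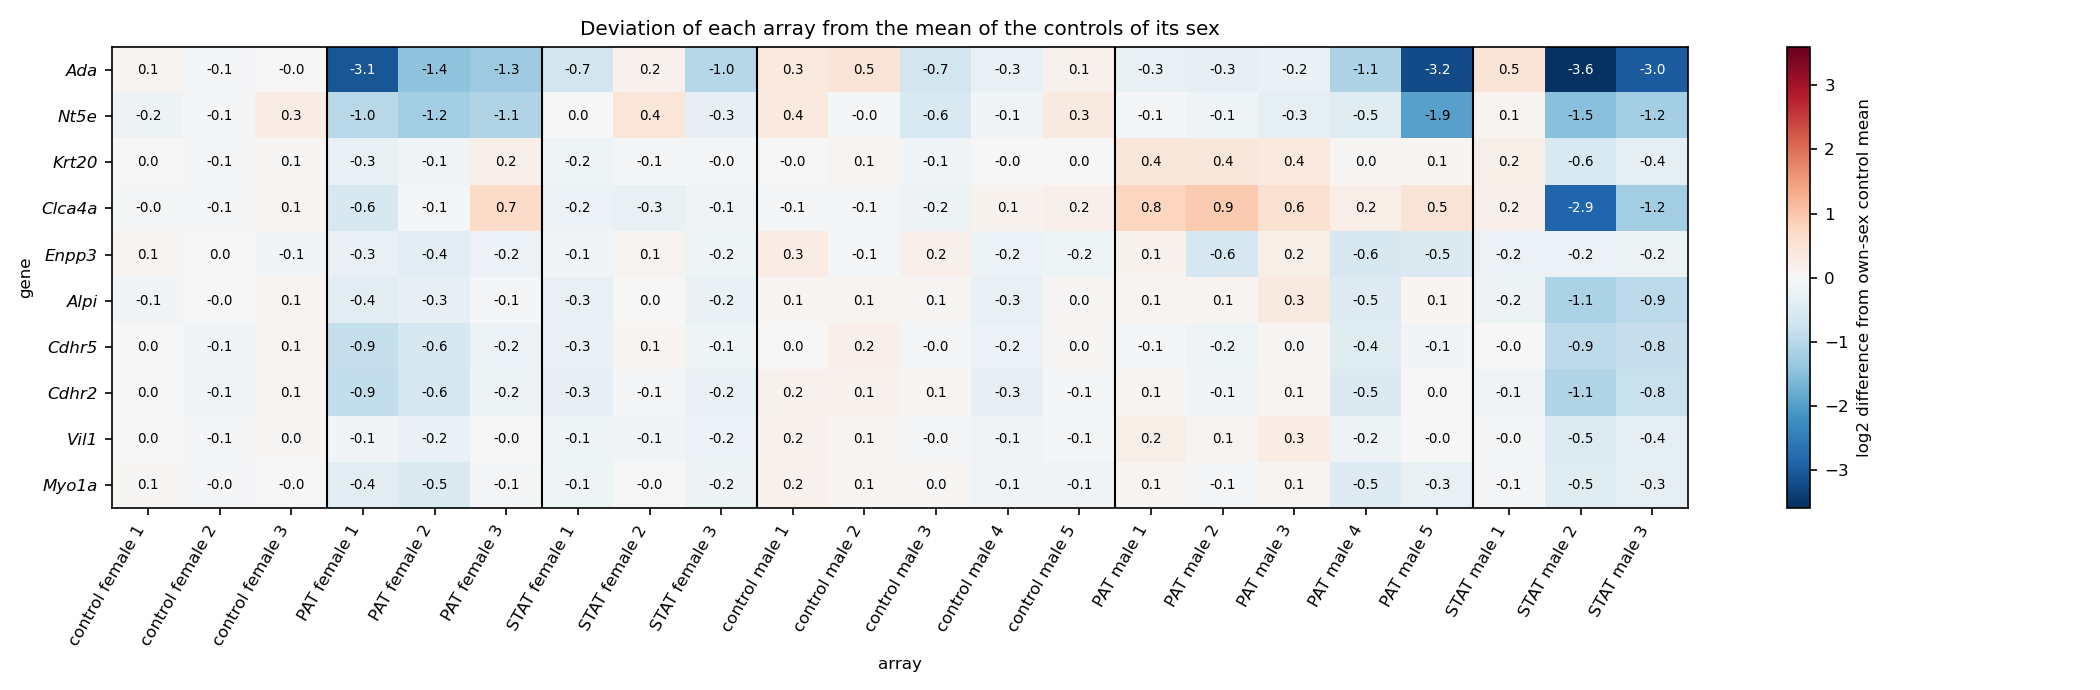
Log2 difference of each gene in each array from the mean of the controls of its own sex, as colour and number. Blue fields fill the columns of STAT males 2 and 3 (Ada -3.56 and -3.0, Clca4a -2.85 and -1.25), and Ada is as low in PAT female 1 and PAT male 5.

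PAT against STAT gave the most calls of members, 5 of 10 in males, all higher with PAT, where 8.71% of all genes were called. Clca4a was 1.89 ± 0.39 higher (3.71-fold, adjusted p = 0.0064), Alpi 0.77 ± 0.17 (adjusted p = 0.011), Krt20 0.49 ± 0.13 (adjusted p = 0.028), Vil1 0.38 ± 0.11 (adjusted p = 0.033) and Cdhr2 0.57 ± 0.18 (adjusted p = 0.048). Ada (1.01 ± 0.71), Nt5e (0.29 ± 0.35), Enpp3 (-0.08 ± 0.16), Cdhr5 (0.45 ± 0.17) and Myo1a (0.15 ± 0.13) were not called. The calls rested on STAT males 2 and 3. Without both only 1 STAT male is left, and Clca4a was then at 0.39 ± 0.29, Alpi at 0.20 ± 0.21 and the median at -0.02. Without STAT male 2 alone 0 were called, without STAT male 3 only Clca4a, and without STAT male 1 7 (15.6% of all genes). Without PAT male 1, 2 or 3 Clca4a and Alpi were the only calls, and Cdhr2 was also lost without PAT male 5. With the beta-actin difference as a covariate, which by itself sets STAT males 2 and 3 apart from all other arrays, 0 were called. With that of Gapdh 3 were called (Clca4a, Alpi and Krt20).

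In the same comparison 9 of the 11 other villus tip genes and 5 of the 19 other brush border genes were higher in PAT males, and 0 of either lower. Of all genes 8.71% were called there. Both lists were chosen with earlier results of these data known, so these counts are a description. Cdkn1a was 1.30 ± 0.18 higher and Junb 1.64 ± 0.25. Of the brush border genes Stx3 was 0.75 ± 0.14, Ezr 0.69 ± 0.15, Eps8 0.94 ± 0.22 and Slc9a3r1 0.48 ± 0.13 higher. Without STAT males 2 and 3 only 1 STAT male is left, too few to count calls. With the beta-actin difference as a covariate the counts were 4 of 11 and 0 of 19. In females PAT against STAT called 0 members (2 at an unadjusted p under 0.05) and 0.863% of genes, 61.1% of them higher (46.4% when quantile normalization was repeated). Ada, Nt5e and Enpp3 lay there in all 3 PAT below all 3 STAT arrays, as 11.2% of genes did, with Nt5e at -1.17 ± 0.40 (adjusted p = 0.15).

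Between control females and control males limma called 0 of 10 members (0 at an unadjusted p under 0.05) and 0.0550% of genes (5 higher and 5 lower in females, 13 and 7 when quantile normalization was repeated), and the largest difference was Ada's -0.29 ± 0.71. The female and male effects of STAT differed by a called amount in 0 of 10 (1 at an unadjusted p under 0.05, Alpi, 0.58 ± 0.26) and in 0% of genes.

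Some members varied together over the 20 arrays other than STAT males 2 and 3. These correlations are descriptions over arrays that share the treatments and the normalization. Cdhr5 and Cdhr2, partners in the links between microvilli, had a Pearson r of 0.94, and Cdhr2 and Myo1a 0.87. Ada and Nt5e had 0.89, and Krt20 and Clca4a 0.83. The lowest of the 45 pairs was Clca4a with Enpp3 at -0.26, and the median pair was at 0.5. With the group means removed Ada and Clca4a, at 0.16 before, had an r of 0.72, and Ada and Nt5e 0.85. With all 22 arrays the median pair was at 0.69.

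Among 11441 genes at a mean level of at least 6, the one most like Ada over those 20 arrays was Lama3, a laminin chain, at r = 0.91, and Lama3 was also first for Nt5e (0.90). Dedd2 was first for Krt20 (0.90), Fam214b for Clca4a (0.95) and Marchf6 for Enpp3 (0.91). Alpi had Slc9a3r1, a scaffold of the microvillus (0.90), Cdhr5 had Dpep1, a membrane dipeptidase of the brush border (0.95), and Cdhr2 had Tinag (0.94). Cdk18 was first for Vil1 (0.93) and the dipeptidase Pepd for Myo1a (0.94).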

How the data were processed

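Expression was measured on 22 arrays, with 45101 probe sets each. The authors deposited log2 values. RMA (background correction, quantile normalization and probe summary) and affy are named, with no version, per the submitters' processing notes. Of the probe sets 34945 carry 1 gene symbol, 932 several and 9160 none. Those with 1 symbol gave 18193 genes, each taken from its probe set of highest mean. No array pair held identical values (correlations 0.984 to 0.997 over 231 pairs). Array number limits the precision.

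All 22 arrays were fitted in limma 3.58.1 (R 4.3.3) with 1 mean per group (16 residual degrees of freedom), moderated by eBayes and two-sided. P-values were adjusted by Benjamini-Hochberg over all genes within a comparison. Averages over the sexes weight females and males equally. The script was tested on simulated data. The members and gene lists were chosen with earlier results of these data known. Every member is named. From each other list up to 4 called genes of smallest p are named per comparison, and for each member the gene of mean at least 6 with the highest correlation over 20 arrays. The cell type lists given include each one whose levels did not overlap between PAT and control arrays of a sex, or that put both STAT males 2 and 3 outside the other 20 arrays.

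Alternatives were another probe set rule, a filter at 6, repeated quantile normalization, median centring, only the groups compared, array weights, a trended robust prior, covariates of RNA end differences, and arrays left out. The list counts under covariates and without STAT males 2 and 3 were added after seeing the data.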

Additional observations from a re-analysis of the deposited data

Results flagged for a closer look

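In 20 sets of 4 to 10 arrays (each gene in the control and the PAT males) 2 held an array far from the others by Dixon's ratio, and chance marks about 1 in 20. Nt5e in PAT male 5 was at 7.39, the lowest of the PAT males, where the next was at 8.89, a gap of 0.8 of the whole range. Alpi in control male 4 was at 12.27, the lowest of the control males, where the next was at 12.58, a gap of 0.83 of the range.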

How the results depend on the processing

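Counts are members called of 10. The number of all genes called changes between these fits as well, so a changed count is not by itself a result about the members. In PAT against control with the sexes averaged, 839 genes were called higher and 1160 lower. Repeated quantile normalization gave 998 and 1304. In PAT against control with the sexes averaged, where 1 was called, the count was 0 with the mean of probe sets or a trended robust prior, 3 with genes of mean at least 6 or only the groups compared, 2 with quantile normalization repeated, the Gapdh covariate or array weights, and 4 without STAT males 2 and 3 or with the beta-actin covariate. Nt5e was not among the 2 called with the Gapdh covariate, so a like count does not mean the same members. Without PAT female 3 Nt5e was not called, while Cdhr5, Cdhr2 and Myo1a were called lower. Leaving out 1 array at a time gave a count of 0 to 4. In males, where 0 were called, it was 1 with only the groups compared or without STAT males 2 and 3 and 2 with either covariate. In females, where 0 were called, it was 1 with only the groups compared, without STAT males 2 and 3 or with the beta-actin covariate, 2 with array weights, and 0 to 2 leaving out 1 array. In STAT against control, where 0 were called, array weights gave 7 for both sexes (12.6% of all genes called) and 9 in males (22.4%), and leaving out 1 array 0 to 6 and 0 to 8. In PAT against STAT in males, where 5 were called, the count was 3 with centred columns or the Gapdh covariate, 0 with only the groups compared or with the beta-actin covariate, and 0 to 7 leaving out 1 array. In females, where 0 were called, it was 2 with the beta-actin covariate and 1 with array weights. The cause of these shifts was not tested. Under these alternatives 0 member differences that had been called changed sign. The largest shift of the median over all genes under any alternative was 0.09. No paired analysis was possible because the labels give no replicate numbers shared between groups.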
